A study of Mus musculus with 8 samples.

Results

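The collagen and laminin genes of the mouse retina were examined as a group of 55 genes among the 54532 genes of the count table, 44 encoding collagen chains and 11 encoding laminin chains. They are the protein-coding genes whose symbol is Col, a type number, a and a chain number, or Lama, Lamb or Lamc with a number. RNA-seq was carried out on whole retinas from 4 *Mettl3*-CKO and 4 control samples, which the labels date to postnatal day 7 and the study's methods to p6. *Mettl3* encodes the catalytic subunit of the complex that writes m6A on RNA. The *Mettl3*-CKO mice carry *Six3-Cre* and are homozygous for the *Mettl3* floxed allele, whereas the labels call the other group Control and give no alleles for it. *Six3-Cre* acts in retinal progenitor cells, with loss of METTL3 described by the study for the central retina, and retinal vessels do not derive from these progenitors. The labels do not say that each sample came from a separate animal, and the p-values therefore measure the spread between these samples, which may in part be technical.

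Collagen chains wind in threes into a triple helix, and the type of collagen decides where it goes. Fibrillar collagens such as type II build rope-like fibrils, which in the eye fill the vitreous, fibril-associated collagens coat their surface, and type IV collagen forms the sheet-like network of basement membranes. Laminins are cross-shaped trimers of an alpha, a beta and a gamma chain that polymerise on cell surfaces and start a basement membrane, such as the inner limiting membrane of the retina, the vascular basement membrane and Bruch's membrane.

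Of the 55 genes, 53 had enough counts to be tested, and in *Mettl3*-CKO retinas 4 of them were higher and 10 lower, at an adjusted p under 0.05 (edgeR's quasi-likelihood test, Benjamini-Hochberg adjustment over 17998 genes). The 4 that rose were *Col20a1*, *Col12a1*, *Lama5* and *Col18a1*. The 10 that fell were *Lama4*, *Col4a1*, *Col5a3*, *Col9a3*, *Col16a1*, *Col6a3*, *Col6a4*, *Col17a1*, *Col7a1* and *Col8a1*. The lower genes made up 18.9% of the tested collagen and laminin genes, where 4.05% of all tested genes were lower, and the higher genes made up 7.55%, where 6.49% of all tested genes were higher. The median log2 fold change (*Mettl3*-CKO over control) was -0.17 for the 53 genes and -0.01 for all tested genes. All 4 *Mettl3*-CKO samples lay below all 4 controls for 15 of the 53 genes, or 28.3%, against 7.58% of all tested genes. They lay above all controls for 6 of them, or 11.3%, against 9.77% of all tested genes.

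**Figure D1:**
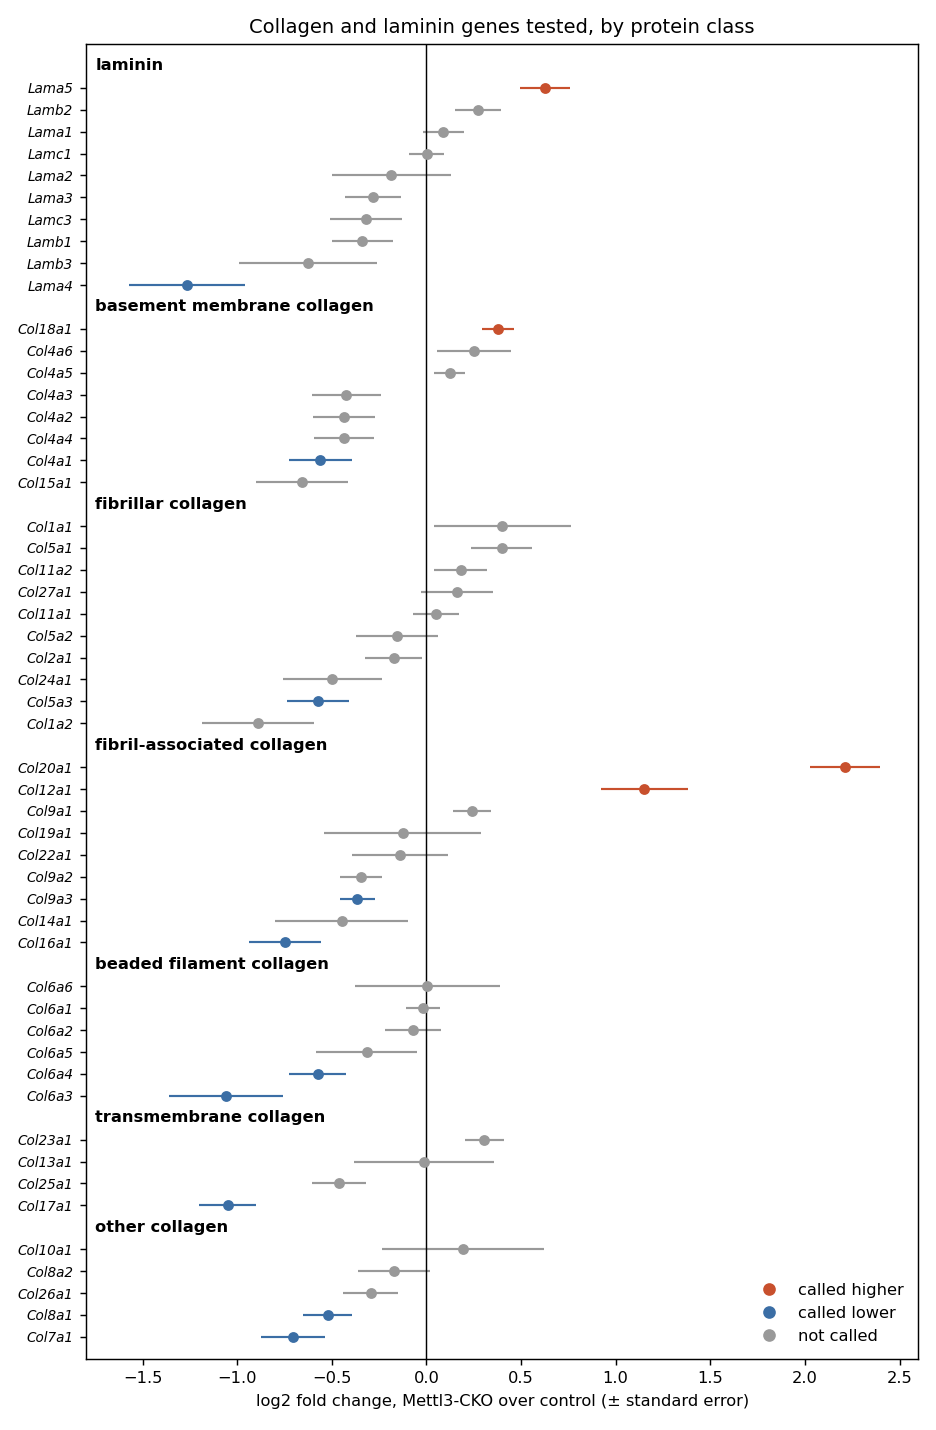
Log2 fold change (*Mettl3*-CKO over control) with its standard error for 52 of the 53 tested collagen and laminin genes, grouped by class, 4 samples a group. *Col20a1* stands far to the right at 2.21, and called genes lie on both sides of 0, 4 to the right and 10 to the left.

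These counts depended on which libraries were included, and control replicates 1 and 4 stood apart in lens RNA. Their summed lens crystallin and lens fibre genes reached 120 and 6317 CPM (counts scaled by TMM to a library of 1000000), against 8.93 to 31.8 CPM in the other 6 samples. With all samples, 6 of 9 tested lens genes were lower and 0 higher. Without these controls 0 were lower (0 at an unadjusted p under 0.05) and 1 was higher. Without these controls, 4 collagen and laminin genes were still higher but only 5 were lower, beside 6.25% of all tested genes higher and 3.63% lower, and the median log2 fold change was -0.09. The genes called with the remaining controls were *Col20a1*, *Col12a1*, *Lama5*, *Col18a1*, *Lama4*, *Col17a1*, *Col7a1*, *Col8a1* and *Col9a3*. Without *Mettl3*-CKO replicate 1 the counts fell to 2 higher (*Col20a1* and *Col12a1*) and 1 lower (*Col17a1*), and these were the 3 genes called whichever sample was left out. Fewer genes of any kind were called in that fit, 2.78% higher and 1.01% lower. The number of lower collagen and laminin genes was 6 without *Mettl3*-CKO replicate 2, 2 without replicate 3 and 7 without replicate 4, where 2.30%, 1.83% and 3.14% of all tested genes were lower. It was 11, 4, 6 and 5 without control replicates 1, 2, 3 and 4 in turn, where 7.07%, 1.91%, 2.48% and 2.54% of all tested genes were lower. The number of higher genes was 3 without control replicate 2 (3.82% of all tested genes), 2 without *Mettl3*-CKO replicate 1 and 4 without any of the other samples. DESeq2, with all samples, called 5 higher and 13 lower, where it called 8.38% of all genes it tested higher and 5.79% lower.

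Summed pigment epithelium, fibroblast and retinal markers did not overlap between the groups, whereas the astrocyte and Müller glial sums did. The *Mettl3*-CKO samples had 59.8 to 83.6 CPM of summed pigment epithelium markers against 92.0 to 124 CPM in controls, with 4 of 7 tested genes lower. Summed connective tissue fibroblast markers were 72.1 to 92.0 CPM against 92.4 to 160 CPM, with 1 of 5 tested genes higher and 1 lower, and the corneal keratocyte gene *Kera* had 0 counts in every sample. The astrocyte sum was 18.1 to 32.7 CPM against 30.6 to 80.4 CPM, with 1 of 4 tested genes lower, and the Müller glial sum was 2200 to 2360 CPM against 2100 to 2685 CPM, with 1 of 8 tested genes higher and 1 lower. Photoreceptor and other retinal markers summed to 3447 to 4108 CPM against 4251 to 5163 CPM, with 1 of 8 tested genes higher and 3 lower, so that the tissue carried its defining genes in every sample. The part of these cells in the collagen and laminin results was not tested, and in whole retina fewer cells of a type and less RNA per cell cannot be told apart. *Mettl3* itself was measured at 21.1, 29.6, 21.3 and 24.3 CPM across *Mettl3*-CKO replicates 1 to 4 and at 33.8, 32.5, 29.4 and 29.3 CPM across control replicates 1 to 4. Its log2 fold change was -0.38 (SE 0.12, edgeR adjusted p = 0.0602), and *Mettl3*-CKO replicate 2 lay within the control range.

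Levels of different genes were compared per gene length, as FPKM (CPM per 1000 bases of the deposited gene length). In controls 28 of the 55 genes were at 1 FPKM or more, and 6 of these were at 10 FPKM or more. The cartilage and vitreous collagen *Col2a1* stood first at 54.3 ± 11.4 FPKM (SD, n = 4), followed by *Col6a1* at 25.4 ± 1.87, *Col9a3* at 21.0 ± 0.686, *Col23a1* at 14.8 ± 1.83, *Col9a1* at 14.3 ± 1.27 and *Col9a2* at 11.1 ± 0.925 FPKM. *Col23a1* and *Col9a1* differed by less than their spread. The collagens of types II and IX, which are partners in the fibrils of cartilage and vitreous, thus took 4 of the 6 highest places. Among laminins the order of control means was *Lamb2* (8.83 FPKM), *Lamc1* (6.86 FPKM), *Lama1* (6.08 FPKM), *Lamb1* (2.74 FPKM) and *Lama5* (1.70 FPKM). *Col20a1* went from place 19 in controls (1.70 ± 0.418 FPKM) to place 9 in *Mettl3*-CKO retinas (7.88 ± 1.42 FPKM), and the scarce *Col12a1* from place 53 (0.105 ± 0.0194 FPKM) to place 41 (0.235 ± 0.0481 FPKM). All collagen and laminin genes together took 0.143% to 0.167% of the counts of a sample, and their summed level overlapped between the groups (1472 to 1669 CPM in *Mettl3*-CKO and 1483 to 1663 CPM in control samples).

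**Figure D2:**
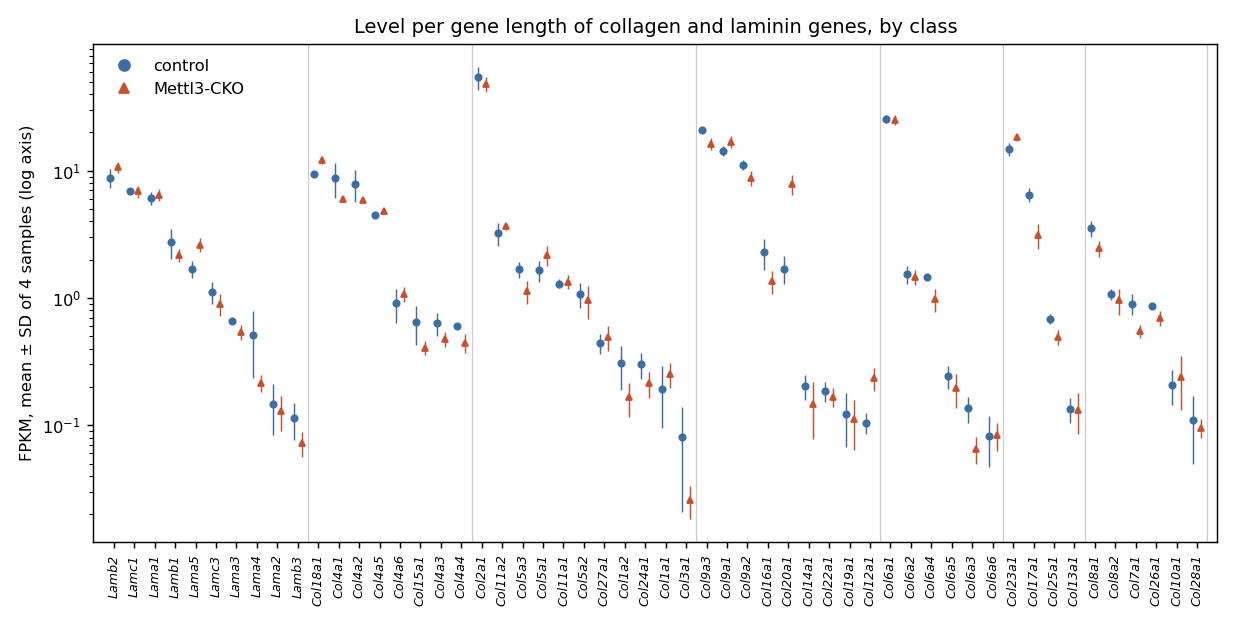
Mean level in FPKM with SD (4 samples a group, log axis) of 54 of the 55 collagen and laminin genes, ordered within each class by the control mean. *Col2a1* tops the plot at 54.3 FPKM in controls, and the points of the groups lie far apart for *Col20a1*, at 1.70 and 7.88 FPKM.

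Basement membranes are represented by 19 genes, the 11 laminins and 8 collagens of types IV, XV and XVIII, and all 19 were tested. Their calls were split, with *Lama5* and *Col18a1* higher and *Lama4* and *Col4a1* lower. Higher and lower genes each made up 10.5% of the 19, where 6.49% of all tested genes were higher and 4.05% lower. The median log2 fold change of these 19 genes was -0.28 with all samples, -0.15 without control replicate 1 and -0.07 without control replicates 1 and 4. With those controls left out, *Lama5* and *Col18a1* were still called higher and *Lama4* lower, and *Col4a1* was not called. Without *Mettl3*-CKO replicate 1, 0 of the 19 genes passed the threshold by edgeR's quasi-likelihood test. At an unadjusted p under 0.05, 2 were higher and 5 lower. In that fit 2.78% of all tested genes were called higher and 1.01% lower. With all samples, DESeq2 gave the same 2 higher and 2 lower counts.

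Among the laminin alpha chains, which carry the domains that bind cell receptors, *Lama5* rose and *Lama4* fell. *Lama5*, found in many epithelial and vascular basement membranes and in the inner limiting membrane, is a minus-strand gene of chromosome 2 (GRCm38, 180176373 to 180225859). It measured 35.0, 27.7, 26.2 and 30.6 CPM across *Mettl3*-CKO replicates 1 to 4 and 15.1, 21.1, 20.2 and 21.0 CPM across control replicates 1 to 4. Every *Mettl3*-CKO sample lay above every control, and control replicate 1 was the lowest. *Lama5* had a log2 fold change of 0.63 (SE 0.13, edgeR adjusted p = 0.0103), a 1.54-fold rise, and 0.53 (adjusted p = 0.0207) without control replicates 1 and 4. It lost its call without *Mettl3*-CKO replicate 1 (adjusted p = 0.0511).

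*Lama4*, the alpha chain typical of endothelial basement membranes, lies on chromosome 10 from 38965515 to 39110188 on the plus strand. It was measured at 2.16, 2.38, 3.03 and 2.79 CPM across *Mettl3*-CKO replicates 1 to 4 and 11.3, 4.78, 4.51 and 4.29 CPM across control replicates 1 to 4. The groups did not overlap, but control replicate 1 was more than 2-fold above the other controls. With all samples the log2 fold change of *Lama4* was -1.26 (SE 0.31, edgeR adjusted p = 0.0214), or 2.40-fold lower. Without control replicate 1 it was -0.80 (adjusted p = 0.00941) and without control replicates 1 and 4 it was -0.84 (adjusted p = 0.0257). The call was lost without *Mettl3*-CKO replicate 1 (adjusted p = 0.0888) or 2 (adjusted p = 0.0600).

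The other laminins were not called. *Lama1*, the alpha chain of the early inner limiting membrane, was at 58.8 ± 6.77 CPM in control and 62.6 ± 6.80 CPM in *Mettl3*-CKO samples (log2 fold change 0.09, SE 0.11). *Lamc1*, the gamma chain of most laminin trimers, was at 59.8, 64.0, 52.6 and 51.0 CPM across *Mettl3*-CKO replicates 1 to 4 and at 56.5, 60.4, 54.7 and 55.6 CPM across control replicates 1 to 4. The groups overlapped fully, with a log2 fold change of 0.00 (SE 0.09) whose sign turned under other scalings. *Lamb2*, a beta chain of the mature basement membrane and of the synaptic cleft, was at 68.2, 71.8, 59.7 and 59.9 CPM against 42.2, 58.9, 62.3 and 51.5 CPM. Control replicate 3 lay within the *Mettl3*-CKO range, and the log2 fold change of *Lamb2* was 0.27 (SE 0.12, edgeR adjusted p = 0.187). Others were *Lamb1* (log2 fold change -0.34), *Lamc3* (-0.32), *Lama3* (-0.28), *Lama2* (-0.19) and *Lamb3* (-0.62), which was near the detection limit at a control mean of 0.749 CPM. *Lamc3* shares 6.27% of its exonic bases with *Gm13441* on the opposite strand, so that reads of these genes may not have been told apart. Set against *Lama1* in the same sample, the FPKM ratio of *Lama5* was 0.458, 0.331, 0.382 and 0.465 in *Mettl3*-CKO and 0.262, 0.282, 0.274 and 0.297 in control replicates 1 to 4. The corresponding *Lama4* ratio was 0.0266, 0.0268, 0.0417 and 0.0399 against 0.185, 0.0602, 0.0576 and 0.0574. The first ratio was thus higher and the second lower in every *Mettl3*-CKO sample than in any control. These ratios largely restate the separation of *Lama5* and *Lama4* themselves, as *Lama1* differed little between the groups.

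Type IV collagen chains are encoded by gene pairs that lie head to head. *Col4a1* (chromosome 8, 11198423 to 11312826, minus strand) and *Col4a2* (11312805 to 11449287, plus strand) encode the chains of the ubiquitous network and overlap by 22 bases at their starts. The promoter windows of this pair (RefSeq, GRCm38.p6, 250 bases before to 50 after the start) are shown because the fold changes of both genes, of which *Col4a1* was called, moved toward 0 without control replicates 1 and 4, next to the window of *Col4a4*, which shares its start region with *Col4a3* at a distance of 71 bases. Capitals mark the GC box GGGCGG and the CCAAT box CCAAT, each searched on both strands. The *Col4a1* window is chr8:11312777-11313076 on the minus strand, the *Col4a2* window chr8:11312555-11312854 on the plus strand and the *Col4a4* window chr1:82586800-82587099 on the minus strand.
Col4a1: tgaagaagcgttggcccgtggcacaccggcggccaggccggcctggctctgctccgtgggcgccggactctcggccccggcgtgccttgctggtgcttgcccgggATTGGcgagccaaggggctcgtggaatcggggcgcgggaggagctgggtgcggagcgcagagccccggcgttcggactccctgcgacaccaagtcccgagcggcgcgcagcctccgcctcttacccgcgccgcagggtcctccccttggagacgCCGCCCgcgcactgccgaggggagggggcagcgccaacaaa
Col4a2: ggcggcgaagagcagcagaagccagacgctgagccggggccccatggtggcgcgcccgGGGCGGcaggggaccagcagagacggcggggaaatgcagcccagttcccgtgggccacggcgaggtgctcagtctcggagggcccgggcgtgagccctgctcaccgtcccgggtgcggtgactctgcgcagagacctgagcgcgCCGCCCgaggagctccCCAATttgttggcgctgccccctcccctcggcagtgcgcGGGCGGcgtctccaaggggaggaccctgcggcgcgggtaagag
Col4a4: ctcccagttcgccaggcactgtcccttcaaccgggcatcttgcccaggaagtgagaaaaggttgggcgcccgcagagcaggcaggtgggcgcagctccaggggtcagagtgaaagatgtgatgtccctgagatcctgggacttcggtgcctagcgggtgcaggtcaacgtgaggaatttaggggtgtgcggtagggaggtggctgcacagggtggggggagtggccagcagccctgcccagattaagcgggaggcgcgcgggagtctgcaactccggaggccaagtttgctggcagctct
The *Col4a1* window held 1 GC box and 1 CCAAT box, the *Col4a2* window 3 GC boxes and 1 CCAAT box, and these letters were not found in the *Col4a4* window. The *Col4a1* and *Col4a2* windows overlap, and the GC box of *Col4a1* is the last GC box of *Col4a2* read on the other strand. None of the 3 windows held TATAAA on either strand. Among all 32851 promoter windows in the RefSeq table, 35.7% held the GC box, 37.4% the CCAAT box and 13.6% TATAAA. Of the 55 collagen and laminin genes 40 had an entry, with 44 windows in all, of which 26 held the GC box, 14 the CCAAT box and 5 TATAAA.

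*Col4a1* was at 44.4, 47.2, 45.0 and 42.4 CPM across *Mettl3*-CKO replicates 1 to 4 and at 94.3, 51.2, 52.4 and 65.9 CPM across control replicates 1 to 4. *Col4a2* was at 41.7, 38.3, 38.5 and 36.9 CPM against 71.6, 36.7, 44.7 and 56.7 CPM. For both genes control replicate 1 was the highest sample and control replicate 4 the next, while control replicates 2 and 3 were close to or within the *Mettl3*-CKO range. The log2 fold change of *Col4a1* was -0.56 (SE 0.16, edgeR adjusted p = 0.0470), and that of *Col4a2* was -0.43 (SE 0.16, adjusted p = 0.116). Without control replicates 1 and 4 these values became -0.21 (adjusted p = 0.174) for *Col4a1* and -0.07 (adjusted p = 0.721) for *Col4a2*. Without control replicate 1 alone, *Col4a1* was at -0.34 (adjusted p = 0.0267). The *Col4a1* call was lost without any single *Mettl3*-CKO replicate (adjusted p of 0.138, 0.0884, 0.102 and 0.110 for replicates 1 to 4) and without control replicate 4 (adjusted p = 0.0892). *Col4a2* was called without control replicate 2 (adjusted p = 0.0368) and with no filter on low counts (adjusted p = 0.0286). The FPKM ratio of *Col4a1* to *Col4a2* was 1.02 ± 0.0617 in *Mettl3*-CKO and 1.12 ± 0.101 in control samples (SD, n = 4), and the groups overlapped.

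The other type IV pairs were expressed at lower levels. *Col4a3* and *Col4a4*, on chromosome 1, encode chains of specialised basement membranes such as that of the glomerulus, and had log2 fold changes of -0.42 (SE 0.18, edgeR adjusted p = 0.169) and -0.44 (SE 0.16, adjusted p = 0.101). *Col4a3* shares 5.65% of its exonic bases with *C430014B12Rik* on the opposite strand. *Col4a4* was at 3.76, 5.22, 5.47 and 4.40 CPM in *Mettl3*-CKO and at 6.69, 6.43, 6.29 and 6.10 CPM across control replicates 1 to 4. Its groups did not overlap, and its fold change was also -0.44 without control replicates 1 and 4. *Col4a5* and *Col4a6*, neighbours on chromosome X, had log2 fold changes of 0.12 (SE 0.08, adjusted p = 0.390) and 0.25 (SE 0.20, adjusted p = 0.481), so that neither was called.

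*Col18a1*, the core protein of a heparan sulfate proteoglycan of basement membranes and the precursor of endostatin, lies on chromosome 10 from 77052178 to 77166548 on the minus strand. It was at 94.5, 81.1, 81.0 and 86.3 CPM across *Mettl3*-CKO replicates 1 to 4 and at 69.7, 63.7, 65.7 and 64.5 CPM across control replicates 1 to 4. All *Mettl3*-CKO samples were above all controls, and both groups were narrow. This gave *Col18a1* a log2 fold change of 0.38 (SE 0.08, edgeR adjusted p = 0.0148) and 0.40 (adjusted p = 0.0194) without control replicates 1 and 4, and the call was lost without *Mettl3*-CKO replicate 1 (adjusted p = 0.0653) or control replicate 2 (adjusted p = 0.0566). Its structural relative *Col15a1*, found in vascular and muscle basement membranes, was at 2.49, 2.32, 3.03 and 2.49 CPM against 5.94, 4.29, 2.94 and 3.14 CPM. *Mettl3*-CKO replicate 3 lay above control replicate 3, and *Col15a1* was not called (log2 fold change -0.66, SE 0.24, adjusted p = 0.106).

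Endothelial markers were measured beside *Lama4* and *Col4a1*, which were called lower, *Col4a2* and *Col15a1*, which were not called, and *Lama5*, which rose. Of 9 tested endothelial markers, 7 were lower in *Mettl3*-CKO retinas (77.8%, against 4.05% of all tested genes). The summed level of the 10 listed markers was 538 to 635 CPM in *Mettl3*-CKO and 558 to 652 CPM in control samples. *Kdr*, the VEGF receptor gene that retinal progenitors also express, dominated this sum at 558 ± 41.1 and 549 ± 59.9 CPM. With *Kdr* left out, a step chosen after its level was seen, the sum was 16.4, 13.5, 17.4 and 18.7 CPM across *Mettl3*-CKO replicates 1 to 4 and 76.4, 30.4, 28.1 and 31.8 CPM across control replicates 1 to 4. Control replicate 1, the sample with the highest *Lama4*, *Col4a1* and *Col4a2*, also had the highest endothelial sum without *Kdr*, though the lowest of the controls with it (558 CPM). This was not particular to endothelial markers. The same sample had the highest mural (82.7 CPM), fibroblast (160 CPM), astrocyte (80.4 CPM), Müller glial (2685 CPM) and retinal (5163 CPM) marker sums. Of 9 tested mural cell markers, 2 were higher (*Notch3* and *Cspg4*) and 2 lower (*Rgs5* and *Abcc9*), with sums of 50.5 to 71.6 CPM against 40.3 to 82.7 CPM. Without control replicates 1 and 4, 4 of the 9 endothelial markers were lower (3.63% of all tested genes). Without *Mettl3*-CKO replicate 1, 2 or 3, 2 of 10 tested were lower, where 1.01%, 2.30% and 1.83% of all tested genes were. It was 6 of 10 without *Mettl3*-CKO replicate 4, and 5 to 8 lower with single controls left out. With all samples, limma voom called 3 of 9 lower, a fit with a replicate block 4 of 9 and DESeq2 8 of 10. The part of vessel content in the values of *Lama4*, *Lama5*, *Col4a1*, *Col4a2* and *Col15a1* was not tested.

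**Figure D3:**
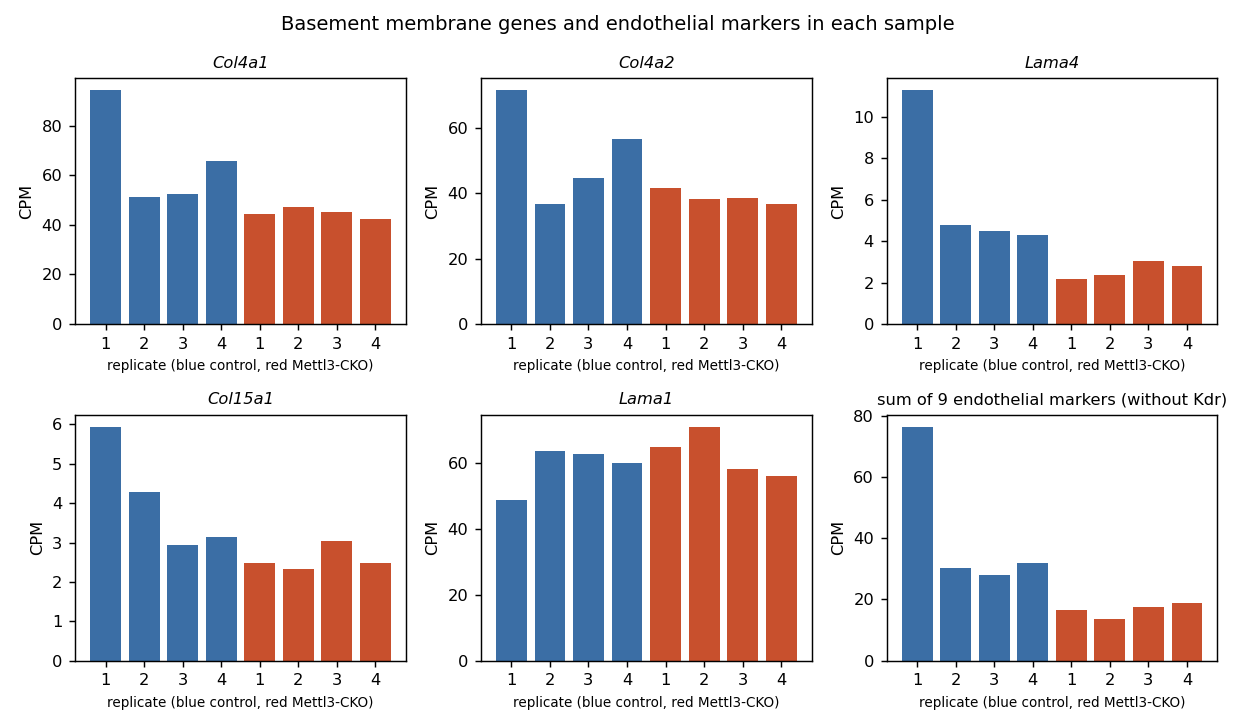
Level in CPM of *Col4a1*, *Col4a2*, *Lama4*, *Col15a1* and *Lama1* and the sum of 9 endothelial markers (*Kdr* left out) in each of 4 control (blue) and 4 *Mettl3*-CKO (red) samples. Control replicate 1 is the tallest bar for *Col4a1* (94.3), *Lama4* (11.3) and the endothelial sum (76.4), but the shortest for *Lama1*.

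Fibrillar collagens comprise 11 genes, of which 10 were tested. None was called higher by edgeR's quasi-likelihood test (0 genes, with 1 at an unadjusted p under 0.05, and 0 by DESeq2), and 1 was called lower. Lower genes were thus 10% of those tested, where 4.05% of all tested genes were lower and 6.49% higher. Their median log2 fold change was -0.05 with all samples and 0.04 without control replicates 1 and 4, where 0 fibrillar genes passed the threshold (0 higher and 2 lower at an unadjusted p under 0.05). The lower gene, *Col5a3*, encodes a minor chain of type V collagen, which sits inside heterotypic fibrils. *Col5a3* was at 5.86, 7.13, 8.23 and 9.43 CPM across *Mettl3*-CKO replicates 1 to 4 and at 13.9, 10.8, 10.2 and 10.7 CPM across control replicates 1 to 4. The groups did not overlap, although *Mettl3*-CKO replicate 4 came within 1 CPM of control replicate 3. *Col5a3* had a log2 fold change of -0.57 (SE 0.16, edgeR adjusted p = 0.0433). It lost its call without any single sample other than *Mettl3*-CKO replicate 4, with adjusted p between 0.0547 and 0.140, and had -0.46 (adjusted p = 0.129) without control replicates 1 and 4. *Col5a1*, the main type V chain, had a log2 fold change of 0.40 (SE 0.16, adjusted p = 0.146). The FPKM ratio of *Col5a1* to *Col5a3* was 2.88, 2.39, 1.44 and 1.41 in *Mettl3*-CKO and 0.586, 1.11, 1.25 and 1.10 in control replicates 1 to 4, without overlap of the groups. This ratio in part restates the separation of *Col5a3* itself, and control replicate 1 lay well below the other controls.

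*Col2a1*, on chromosome 15 (97975602 to 98004695, minus strand), encodes the chain of type II collagen, the main collagen of cartilage and vitreous. It was at 388, 520, 405 and 468 CPM across *Mettl3*-CKO replicates 1 to 4 and at 345, 550, 571 and 542 CPM across control replicates 1 to 4. Control replicate 1 was the lowest of all 8 samples, and the other controls were above every *Mettl3*-CKO sample. The log2 fold change of *Col2a1* was -0.17 (SE 0.15, edgeR adjusted p = 0.526) with all samples and -0.32 (adjusted p = 0.0325) without control replicate 1. Without control replicates 1 and 4 it was -0.34 (adjusted p = 0.0716). *Col11a2*, which encodes a chain of type XI collagen in the core of type II fibrils, was at 26.9, 23.5, 23.9 and 25.8 CPM against 15.6, 23.5, 26.0 and 23.3 CPM. Control replicate 1 was again the lowest, and the groups overlapped (log2 fold change 0.18, SE 0.14, adjusted p = 0.474). Its partner *Col11a1* had a log2 fold change of 0.05.

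The type I and type III collagens that fill connective tissue were scarce. *Col1a2* was at 2.71, 2.44, 1.43 and 1.66 CPM in *Mettl3*-CKO and at 5.72, 2.69, 2.68 and 4.11 CPM across control replicates 1 to 4, with control replicates 1 and 4 on top. Its log2 fold change was -0.89 (SE 0.30, edgeR adjusted p = 0.0755, called by DESeq2 at 0.0344) and -0.39 (adjusted p = 0.431) without those controls. *Col1a1* had a log2 fold change of 0.40 (SE 0.36) at a control mean of 1.26 CPM. *Col3a1* was left out of the test for low counts, at 0.332, 0.232, 0.159 and 0.293 CPM against 1.61, 0.245, 0.525 and 0.786 CPM, where 3 counts correspond to 0.148 to 0.185 CPM in a sample. The remaining fibrillar genes *Col5a2* (-0.16), *Col24a1* (-0.50) and *Col27a1* (0.16, all log2 fold changes) were not called.

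Fibril-associated collagens, which lie on fibril surfaces and carry interrupted helices, held the largest log2 fold change of the 53 genes. Of the 9 genes tested, *Col20a1* and *Col12a1* were higher and *Col9a3* and *Col16a1* lower. Each direction made up 22.2%, where 6.49% of all tested genes were higher and 4.05% lower. The median log2 fold change of the 9 genes was -0.14. This median moved with the samples included and was -0.32 without control replicates 1 and 4, -0.24 without control replicate 1, -0.24 without control replicate 2, -0.30 without control replicate 3, -0.34 without *Mettl3*-CKO replicate 4 and -0.02 without *Mettl3*-CKO replicate 1. *Col20a1*, on chromosome 2 from 180986535 to 181018363 on the plus strand, encodes a little-studied member of this family. It was at 47.9, 31.0, 39.2 and 43.9 CPM across *Mettl3*-CKO replicates 1 to 4 and at 5.56, 9.43, 10.1 and 9.97 CPM across control replicates 1 to 4. The lowest *Mettl3*-CKO sample was more than 3-fold above the highest control. The log2 fold change of *Col20a1* was 2.21 (SE 0.18, edgeR adjusted p = 9.26e-05), a 4.63-fold rise. By p it ranked 5 among the 17998 tested genes, and by size it was number 25 among the rises. It stayed called in all 8 fits with a sample left out, at 2.04 to 2.32, and was 2.05 (adjusted p = 4.6e-05) without control replicates 1 and 4. *Col20a1* shares 79 exonic bases (1.54%) with the overlapping transcript BX649560.1 on the same strand.

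*Col12a1*, which encodes a fibril-bridging collagen of dense connective tissue, was at 3.65, 2.90, 4.57 and 3.18 CPM in *Mettl3*-CKO and at 1.66, 1.22, 1.94 and 1.57 CPM across control replicates 1 to 4. Although scarce, it was higher in every *Mettl3*-CKO sample than in any control. For *Col12a1* the log2 fold change was 1.15 (SE 0.23, edgeR adjusted p = 0.00861), and 1.02 to 1.27 with a sample left out, always past the threshold. *Col16a1* was at 8.13, 8.35, 8.13 and 12.0 CPM against 21.2, 15.2, 12.2 and 12.9 CPM. *Mettl3*-CKO replicate 4 nearly reached control replicate 3, and control replicate 1 was the highest. Its log2 fold change was -0.75 (SE 0.19, adjusted p = 0.0271), and it lost its call without *Mettl3*-CKO replicate 1 (0.107), 2 (0.0751) or 3 (0.0813), without control replicate 2 (0.0646) and without control replicates 1 and 4 together (-0.58, 0.0561, all adjusted p).

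The chains of type IX collagen, which join in a heterotrimer on type II fibrils, did not move alike. *Col9a3* was at 53.5, 70.0, 63.6 and 63.7 CPM across *Mettl3*-CKO replicates 1 to 4 and at 77.5, 80.3, 81.3 and 83.9 CPM across control replicates 1 to 4. *Col9a1* was at 90.7, 88.9, 90.6 and 72.4 CPM against 75.5, 71.8, 63.7 and 78.6 CPM. *Col9a3* was lower in every *Mettl3*-CKO sample, whereas *Col9a1* was above the controls in *Mettl3*-CKO replicates 1 to 3 and among them in replicate 4. The log2 fold changes were -0.36 for *Col9a3* (SE 0.09, edgeR adjusted p = 0.0270), 0.24 for *Col9a1* (SE 0.10, adjusted p = 0.158) and -0.34 for *Col9a2* (SE 0.11, adjusted p = 0.0654, and 0.0376 by DESeq2). *Col9a3* lost its call in 6 of the 8 fits with a sample left out, with adjusted p up to 0.111 without *Mettl3*-CKO replicate 1. It stayed called without control replicates 1 and 4 (adjusted p = 0.0432). Within a sample, the FPKM ratio of *Col9a1* to *Col9a3* was 1.29, 0.965, 1.08 and 0.864 in *Mettl3*-CKO and 0.741, 0.680, 0.596 and 0.713 in control replicates 1 to 4. This ratio in part restates the separation of *Col9a3* itself. The *Col9a2* to *Col9a3* ratio, 0.537 ± 0.0172 against 0.530 ± 0.0342 (SD, n = 4), overlapped between the groups. *Col9a3* shares 6.07% of its exonic bases with *Tcfl5* on the opposite strand, and whether the counting used strand is not given in the sources used here. Among collagen and laminin genes, those nearest to *Col9a3* on chromosome 2 were *Lama5* and *Col20a1*, at distances of 371930 and 364345 bases. Both were called higher, while *Col9a3* was called lower. Fold changes of other genes in these intervals were not compared.

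**Figure D4:**
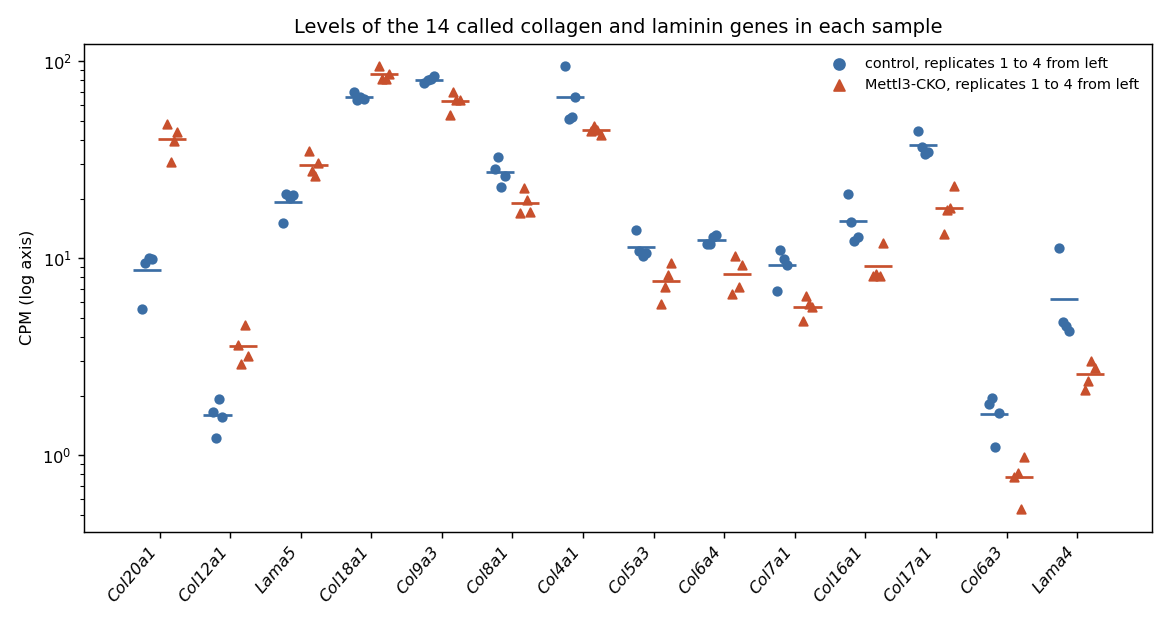
Level in CPM of the 14 called collagen and laminin genes in each control and *Mettl3*-CKO sample on a log axis, with lines at the group means. The groups do not overlap for any of these genes, which largely follows from choosing them by their calls in these same samples. The gap is widest for *Col20a1*, at 5.56 to 10.1 CPM in controls and 31.0 to 47.9 CPM in *Mettl3*-CKO retinas.

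The 6 chains of type VI collagen, which forms beaded microfilaments around basement membranes, gave 2 lower genes, *Col6a3* and *Col6a4*. That was 33.3% of the 6 genes, where 4.05% of all tested genes were lower. *Col6a1* was at 103, 123, 102 and 110 CPM across *Mettl3*-CKO replicates 1 to 4 and at 109, 111, 122 and 103 CPM across control replicates 1 to 4. *Col6a2*, its neighbour on chromosome 10, was at 12.8, 14.3, 11.3 and 10.4 CPM against 15.1, 14.0, 11.6 and 10.4 CPM. Both overlapped fully between the groups, with log2 fold changes of -0.02 (SE 0.09) and -0.07 (SE 0.15). *Col6a4* was at 6.58, 10.3, 7.17 and 9.28 CPM against 11.8, 11.9, 12.8 and 13.2 CPM. *Col6a3*, the long chain that joins *Col6a1* and *Col6a2* products in the classical trimer, was at 0.774, 0.812, 0.531 and 0.977 CPM against 1.82, 1.96, 1.10 and 1.63 CPM. Every *Mettl3*-CKO sample lay below every control for both. The log2 fold changes were -0.57 for *Col6a4* (SE 0.15, edgeR adjusted p = 0.0307) and -1.06 for *Col6a3* (SE 0.30, adjusted p = 0.0422). Without control replicates 1 and 4 they were -0.57 (adjusted p = 0.0604) and -0.96 (adjusted p = 0.124). *Col6a4* was called in 3 of the 8 fits with a sample left out, those without control replicate 1 or *Mettl3*-CKO replicate 2 or 4, and *Col6a3* in 2, those without control replicate 1 or 3.

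Transmembrane collagens are anchored in the cell surface and can be shed. *Col17a1*, known as the hemidesmosome collagen of epithelia, lies on chromosome 19 from 47646344 to 47692094 on the minus strand. It was at 13.3, 17.6, 18.1 and 23.3 CPM across *Mettl3*-CKO replicates 1 to 4 and at 44.4, 36.7, 34.0 and 34.6 CPM across control replicates 1 to 4. The groups were separated by more than 10 CPM. For *Col17a1* the log2 fold change was -1.05 (SE 0.15, edgeR adjusted p = 0.00142), or 2.07-fold lower, and -0.97 (adjusted p = 0.00258) without control replicates 1 and 4. It was called in all 8 fits with a sample left out, at -1.20 to -0.92. *Col23a1* was at 109, 112, 102 and 96.2 CPM against 70.2, 84.3, 94.3 and 90.3 CPM. Its groups did not overlap, but control replicate 3 came close to *Mettl3*-CKO replicate 4, and it was not called by edgeR (log2 fold change 0.31, SE 0.10, adjusted p = 0.0736) but was by DESeq2 (adjusted p = 0.0352). *Col25a1*, expressed in neurons, also missed the threshold without overlap of the groups (-0.46, SE 0.14, adjusted p = 0.0585, and 0.0387 by DESeq2).

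Among the remaining collagens *Col7a1* and *Col8a1* were lower, or 40% of the 5 tested, where 4.05% of all tested genes were lower. *Col7a1*, which encodes the collagen of anchoring fibrils, was at 4.81, 6.44, 5.84 and 5.67 CPM across *Mettl3*-CKO replicates 1 to 4 and at 6.85, 11.1, 9.97 and 9.25 CPM across control replicates 1 to 4. *Col8a1*, a short-chain network collagen of Descemet's membrane and vessel walls, was at 17.0, 22.7, 19.9 and 17.1 CPM against 28.2, 32.5, 23.1 and 26.2 CPM. In both, the highest *Mettl3*-CKO sample (replicate 2) lay just under the lowest control. The log2 fold changes were -0.71 for *Col7a1* (SE 0.17, edgeR adjusted p = 0.0200) and -0.52 for *Col8a1* (SE 0.13, adjusted p = 0.0237). Both stayed called without control replicates 1 and 4, at -0.89 (adjusted p = 0.00504) and -0.54 (adjusted p = 0.0396). *Col7a1* lost its call without *Mettl3*-CKO replicate 1 (0.0832) or 3 (0.0517) or control replicate 2 (0.0709) or 3 (0.0572, all adjusted p). *Col8a1* lost it without *Mettl3*-CKO replicate 1 (0.0945), 3 (0.0550) or 4 (0.0649) or control replicate 2 (0.0803, all adjusted p). Its partner *Col8a2* was at 3.37, 4.75, 5.42 and 3.62 CPM against 5.19, 5.27, 4.62 and 4.23 CPM, which overlapped (log2 fold change -0.17, SE 0.19). *Col28a1* was not tested, with 0.406 to 0.584 CPM in *Mettl3*-CKO and 0.210 to 0.910 CPM in control samples.

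**Figure D5:**
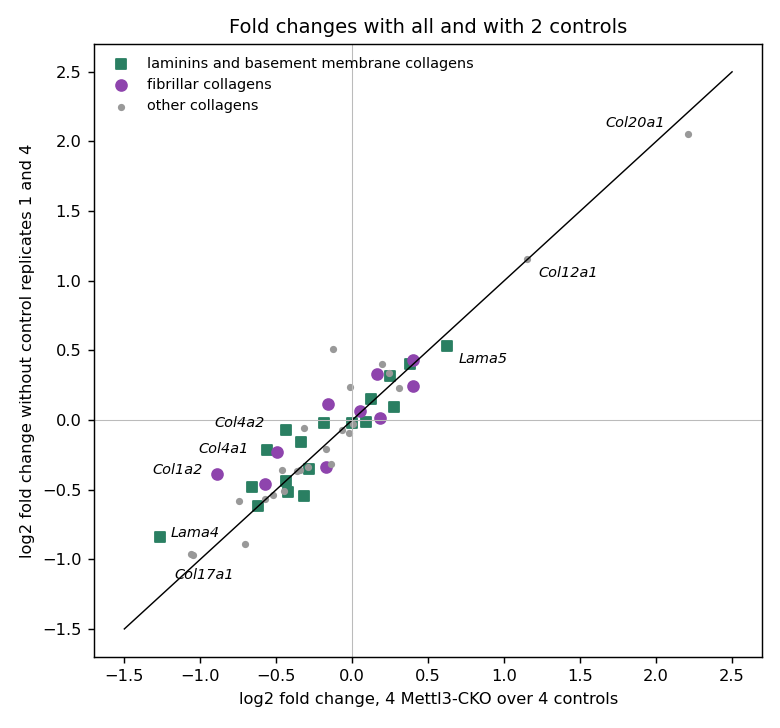
Log2 fold change of 52 of the 53 tested collagen and laminin genes without control replicates 1 and 4 (vertical axis) against that with all samples (horizontal axis), with the line of equal values. *Col4a1*, *Col4a2*, *Lama4* and *Col1a2* lie above the line, at values nearer to 0 without these controls, while *Col12a1* lies on it at 1.15 and 1.16.

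Genes that work with collagens and laminins were counted from lists that were chosen with earlier results of these data known. Among all tested genes, 6.49% were higher and 4.05% lower. Lower genes made up 7.14% and higher genes 0% of the 14 tested basement membrane partners. Of the 13 tested receptors, 15.4% were higher and 0% lower. These counts moved with the fit. Without *Mettl3*-CKO replicate 1, 0 receptors were higher and 1 partner was lower, where 2.78% of all tested genes were higher and 1.01% lower. Without *Mettl3*-CKO replicate 2, 1 receptor was higher and 0 partners were lower (4.84% and 2.30%). DESeq2 called 1 partner higher and 3 lower, and 2 receptors higher and 1 lower (8.38% and 5.79%). Of 14 tested partners in the basement membrane, such as nidogens and perlecan, 1 was called, *Egfl7*, lower (a secreted endothelial matrix protein, log2 fold change -0.60, edgeR adjusted p = 0.0200). *Nid1*, the nidogen that links laminin to type IV collagen, was at 21.6, 8.82, 9.91 and 11.5 CPM in control and at 8.52, 5.86, 8.18 and 6.21 CPM across *Mettl3*-CKO replicates 1 to 4, with control replicate 1 again far above the rest. Among 13 tested receptors, 2 were higher: *Dag1*, which encodes the laminin receptor dystroglycan (0.49, adjusted p = 0.0151), and *Itga6*, a laminin-binding integrin chain (0.33, adjusted p = 0.0380).

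Of 24 tested enzymes and chaperones that process collagen, 2 were higher (8.33%) and 1 lower (4.17%). These shares were close to those of all tested genes, 6.49% and 4.05%. *Serpinh1*, the collagen chaperone HSP47, rose by 0.39 (log2, edgeR adjusted p = 0.0357). *Crtap*, part of a prolyl 3-hydroxylase complex, rose by 0.56 (adjusted p = 0.0285), while *Colgalt2*, a collagen galactosyltransferase, fell by 0.47 (adjusted p = 0.0368). Without *Mettl3*-CKO replicate 1 or 3, or control replicate 2 or 4, 0 processing enzymes were called higher and 0 lower. Without control replicate 3, 0 were higher and 1 lower. In these fits 2.78% to 4.58% of all tested genes were higher and 1.01% to 2.54% lower. Of 12 tested matrix proteases and inhibitors, 2 were higher (16.7%) and 1 lower (8.33%). *Mmp2*, a gelatinase that cleaves type IV collagen, was at 52.6, 29.6, 47.5 and 51.2 CPM in *Mettl3*-CKO and at 16.7, 13.6, 14.0 and 15.0 CPM across control replicates 1 to 4. It was at least 29.6 CPM in every *Mettl3*-CKO sample and at most 16.7 CPM in controls, a log2 fold change of 1.61 (SE 0.16, adjusted p = 0.000227). *Mmp11* rose by 0.74 (adjusted p = 0.00566), and *Timp3*, an inhibitor bound to Bruch's membrane, fell by 0.58 (adjusted p = 0.0159). Without control replicates 1 and 4, 1 partner was lower, 1 receptor higher and 1 lower, 3 of 25 tested processing enzymes higher, and 2 proteases or inhibitors higher and 1 lower. In that fit 6.25% of all tested genes were higher and 3.63% lower.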

How the data were processed

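RNA was measured by RNA-seq in 4 *Mettl3*-CKO and 4 control retinal samples, grouped by their labels. Per the study's methods, filtered reads were aligned by HISAT2 to GRCm38 and assigned to genes by featureCounts, and the authors deposited whole-number counts. Annotation release and strand setting are not given in the sources used here, but all 55 genes have the same coordinates in GENCODE vM21. Total counts were 16227095 to 20281517 per sample. In R 4.3.3, edgeR 4.0.16 kept genes by filterByExpr (minimum count 10, about 0.541 CPM in 4 samples, 17998 genes), scaled them by TMM and tested them with the quasi-likelihood test at a Benjamini-Hochberg adjusted p of 0.05. Of the 53 collagen and laminin genes kept, 52 were above this level in 2 or more samples of each group. SE is the absolute log2 fold change over the square root of F. Alternatives were limma 3.58.1 (voom), DESeq2 1.42.0, other scalings, no filter, a replicate block, a threshold of 0.01, each sample left out and control replicates 1 and 4 left out together. The test was checked on simulated data. The members, classes, pathway and marker lists, and the plan to leave out controls 1 and 4, were chosen with earlier results of these data known. Values in every sample are given for genes called with all samples or without those controls, and for the 2 genes per class with the highest mean FPKM. From pathway lists the called genes are named, with values in every sample for *Mmp2*. *Lama1*, *Col4a2*, *Col4a4*, *Col15a1*, *Col1a2*, *Col3a1* and *Nid1* were added after their values were seen. No pair of samples within a group was close enough to be 1 library (chi-square of at least 5.47 per gene). The values of 1 gene of the group are not reported here.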

Additional observations from a re-analysis of the deposited data

Results flagged for a closer look

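Outlying samples were sought among the called genes and the 2 genes per class with the highest mean FPKM. In independent groups chance would give about 1 in 20, or 2.3, but these genes share the same 8 libraries. Of 46 groups of 4 samples, 7 held a sample far from the other 3. Control replicate 1 was that sample in 5 of the 7. It was low for *Col20a1* (5.56 CPM, others 9.43 to 10.1), *Col2a1* (345 CPM, others 542 to 571) and *Lama5* (15.1 CPM, others 20.2 to 21.1), and high for *Lama4* (11.3 CPM, others 4.29 to 4.78) and *Col5a3* (13.9 CPM, others 10.2 to 10.8). *Mettl3*-CKO replicate 4 was high for *Col16a1* (12.0 CPM, others 8.13 to 8.35) and low for *Col9a1* (72.4 CPM, others 88.9 to 90.7). The same control library had the highest endothelial marker sum once *Kdr* was left out, a step chosen after its level was seen, and the lowest of the controls with *Kdr*. Its mural, fibroblast, astrocyte, Müller glial and retinal marker sums were also the highest of all samples. The cause was not tested.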

How the results depend on the processing

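The 4 higher and 10 lower calls moved as follows. At an adjusted p of 0.01, 2 genes were higher (*Col20a1* and *Col12a1*) and 1 lower (*Col17a1*), where 2.44% and 0.817% of all tested genes were. Leaving out single samples gave 2 to 4 higher and 1 to 11 lower genes, and leaving out control replicates 1 and 4 together gave 5 lower. Where 2 basement membrane genes were lower with all samples, the count was 1 with voom, 1 without those controls, 0 at 0.01 and 0 to 3 with single samples left out, the highest without control replicate 2, where *Col4a2* was called. For the 1 lower fibrillar gene the counts were 2 with DESeq2, 2 without a filter, 0 without those controls, 0 at 0.01 and 0 to 1 with single samples left out. The cause of these moves was not tested.

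Same-numbered samples of the groups correlated at -0.03, 0.27, -0.11 and 0.27 in their deviations from the group means. These 4 values do not settle whether the numbers pair the samples. The best match was the own number for replicates 2 and 4 of both groups, and another number for replicates 1 and 3. Adding the replicate block to the fit gave 4 higher and 7 lower genes, 1 lower basement membrane gene and 0 lower fibrillar genes.

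Some values near 0 changed sign. *Lamc1* was -0.00098 with DESeq2, -0.0049 with voom, -0.0034 with RLE factors, -0.0076 with upper-quartile scaling, -0.0033 with the block, -0.0197 without control replicates 1 and 4, and -0.059 to 0.0517 with single samples left out. With single samples left out, *Col6a1* ranged from -0.0784 to 0.0337 and *Col6a2* from -0.156 to 0.022. The biological coefficient of variation was 15.0%, and genes near 1 CPM, such as *Col3a1*, *Lamb3* and *Col6a3*, rest on few counts per sample.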
